A study of Gallus gallus with 2 samples.

Results

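The cytosolic ribosomal proteins were followed here through 73 of the 42034 gene probes of a chicken oligonucleotide array. The probes were taken by name: a description containing "ribosomal protein L", "ribosomal protein S" or "ribosomal protein, large", or a gene name starting with RPL or RPS and a digit. Descriptions with "mitochondrial" or "kinase" and probes placed on chromosome Z by the array were left out. Brain RNA came from newly hatched Cobb chicks trained for 1 h, labelled imprinted, and from chicks of the same strain reared in the dark. Each condition had 16 chicks, pooled by sex into pools of 8, and each sex had a single 2-colour array that carried its trained pool in Cy3 and its dark-reared pool in Cy5. The 4 groups were therefore the trained male, trained female, dark-reared male and dark-reared female pools. The dark-reared chicks were the only controls, so learning cannot be told apart from light or other parts of the session. No array carried the opposite dye order, and any dye bias of a probe is therefore part of both its ratios. Pooling leaves no value for single chicks, and the number of arrays limits the precision.

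Cytosolic ribosomes are built from ribosomal RNA and a large set of proteins, each of which stands in the small subunit, which reads the mRNA, or in the large subunit, which joins the amino acids. In vertebrates the mRNAs of these proteins carry a pyrimidine tract at their 5' end through which mTOR signalling sets their translation. They are among the abundant mRNAs of most cells, and in neurons some are also carried into axons and dendrites.

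Of the 73 probes, 39 carried the name of a chicken cytosolic ribosomal protein, for 34 different genes. RefSeq (assembly GRCg7b) lists 65 protein-coding genes under such symbols, and 33 of these had a probe among the 39. A further 6 probes belonged to relatives: RPL22L1, RPL26L1, RPL3L, RPL7L1 and RPS27L, and RPS19BP1, whose product binds a ribosomal protein and is no ribosomal subunit. One more probe carried the description of L37a but the gene name SMARCAL1, which RefSeq also gives it, so its transcript is uncertain. The last 27 stood on assembled transcripts known only by a match. In 9 of these the match was to a vertebrate protein or nearly complete. In the other 18 it was to a bacterial, plant or protozoan protein or to one with no organism named, often over a small part of its length, and 1 of the 18 was described with a misspelt "mitochondrial". The label "cytosolic ribosomal protein" thus rests on a chicken gene name for 39 of the 73 probes only, and the 18 were not shown to belong to chicken cytosolic ribosomes. By name, 46 of the 73 probes belonged to the large and 27 to the small subunit, with RPS19BP1 counted as small.

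A probe was kept when it was well above background in at least 1 dye on both arrays, and 52 of the 73 passed (71.2%), against 65.1% of all probes. In the single channels 50, 50, 54 and 53 of the 73 were well above background in the trained male, trained female, dark-reared male and dark-reared female pool. The kept probes fell into a lower and an upper set of signals with no member between a mean log2 signal of 8.65 (RPL39) and one of 10.96 (RPS27L). Apart from RPS21 and RPL3L, the RefSeq probes were in the upper set, and of the EST probes none was. Signals of different probes depend on the probe as well as on the RNA, so the split does not order the mRNAs by abundance. The kind of sequence behind the probe went with it. All 31 probes made from RefSeq mRNAs were kept, and 20 of them had a mean log2 signal of at least 13. Only 4 of 15 probes made from single ESTs or similar records were kept, and 17 of 27 made from assembled transcripts. Over the whole array 8755 of 10303 RefSeq probes, 14254 of 24124 EST probes and 4363 of 7607 assembled-transcript probes were kept. RPL8, RPL9, RPL10A, RPL12, RPL30, RPL35 and RPL7 had no probe under their gene name but an EST probe, and none of these 7 probes was kept. These probes therefore gave no measurement, which does not show that the mRNAs were absent. The dim assembled transcript TC207037, described by a match to mouse L12, was kept and lies near the RPL12 probe in the opposite listed order.

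The first question was whether the ribosomal protein mRNAs differed in the brain after training. Of the 52 kept probes, 12 were lower and 2 higher in trained chicks at an adjusted p of 0.05 in limma, and 38 did not pass. Over all 27372 kept probes 11.2% were called lower and 6.31% higher. Members were called lower in 23.1% and higher in 3.85% of cases, but members entered the test only after the filter on dim signals, and the shares were not tested against each other. The median ratio of the 52 probes, log2 of trained over dark-reared, was -0.042, against -0.012 for all kept probes. It was -0.063 in males and -0.054 in females. Both arrays agreed in sign for 39 of the 52, a share near that of all kept probes (19676 of 27372). By direction, 27 members were below and 12 above 0 on both arrays, against 10767 and 8909 of all kept probes. Over the 52 probes the male and the female ratios correlated at r = 0.89, and over all kept probes at r = 0.67, with the dye of every probe shared between the arrays. In whole brain, fewer cells of a type and less RNA per cell cannot be told apart. On the processed signals of the scanner software, limma called 0 members and 0 probes of the array. At an unadjusted limma p of 0.05, 8 of the 52 members were lower and 5 higher. In either direction 4878 of the 27372 kept probes of the array passed that threshold. The median ratio of the 52 probes in the processed signals was 0.010 in males and -0.016 in females. With a normexp offset of 16 limma called 5 lower and 0 higher, where 306 probes of the array were called higher and 628 lower. With median centring in place of loess it called 38 lower and 0 higher, where 974 probes of the array were called higher and 16499 lower.

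Among the large subunit proteins, RPL32 had the lowest ratio after loess. Its normalised log2 signal was 14.27 in the trained male and 14.34 in the trained female pool, against 14.999 in the dark-reared male and 15.07 in the dark-reared female pool. Both trained pools lay below both dark-reared pools, and the transcript fell to 0.603 of its dark-reared signal (log2 -0.73 ± 0.0052, SD, n = 2 arrays, limma adjusted p = 0.00697). In the processed signals its mean was -0.25 (limma adjusted p = 0.271), above those of RPL7A (-0.45) and RPL6 (-0.33). The RPL32 probe lies on chromosome 12 from 19393075 to 19393134 in the galGal2 build of the array. RPL14 had 13.48 and 13.66 in the trained male and female pools, against 14.15 and 14.16 in the dark-reared male and female pools. Its ratio was -0.67 in males and -0.50 in females, with a mean of -0.58 ± 0.12 (SD, n = 2, limma adjusted p = 0.00822) that the processed signals put at -0.26 and -0.12. RPLP1, an acidic protein of the stalk that recruits elongation factors, had 14.56 and 14.58 in the trained male and female pools, against 14.95 and 14.93 in the dark-reared pools. It fell to 0.773 of the dark-reared signal (log2 -0.37 ± 0.028, SD, n = 2, limma adjusted p = 0.0121), with a processed mean of -0.22. RPL23A, which stands at the exit of the nascent chain, was lower by a mean of -0.33 (-0.41 in males and -0.25 in females, limma adjusted p = 0.0212). RPL6 had a mean of -0.28, with -0.23 in males and -0.33 in females (limma adjusted p = 0.0259). The processed mean of RPL6 was at least as low as the loess value, whereas RPL23A had -0.099 in males and 0.020 in females. The probe described as L37a and named SMARCAL1 had -0.37 on both arrays (limma adjusted p = 0.0121).

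RPL3 and RPL35A rose. RPL3, a core protein near the peptidyl transferase centre, had 12.58 and 12.61 in the trained male and female pools, against 12.32 and 12.28 in the dark-reared pools. Its ratio was 1.23-fold (log2 0.29 ± 0.046, SD, n = 2, limma adjusted p = 0.0199). The RPL35A probe carries the description of a protein similar to L32, whereas the array's gene name and its gene number in RefSeq give RPL35A, so its name is less secure. RPL35A had 14.49 and 14.50 in the trained male and female pools, against 14.25 and 14.30 in the dark-reared pools, a 1.16-fold ratio (log2 0.22 ± 0.033, SD, n = 2, limma adjusted p = 0.0403). In both genes the trained pools lay above the dark-reared pools on each array, and the processed signals also gave values above 0 on both arrays. In galGal2 the RPL3 probe spans chr1:47401675-47401734, and the RPL35A probe chr9:14485256-14485739. Median centring of the arrays in place of loess put RPL3 at -0.56 and RPL35A at -0.78, where the medians of all kept probes were -0.39 in males and -0.30 in females. RPL4 (0.11), RPL36 (0.020), RPL21 (-0.039), RPL13 (-0.051), RPL22 (-0.053) and RPL5 (-0.10) did not pass the test. RPL5, which binds the 5S ribosomal RNA, had 13.89 and 13.78 in the trained male and female pools and 13.93 and 13.95 in the dark-reared male and female pools.

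Among the small subunit proteins, RPS2 had the lowest ratio after loess. Its signal was 14.48 and 14.45 in the trained male and female pools, against 15.14 and 15.05 in the dark-reared male and female pools. It fell to 0.646 of the dark-reared signal (log2 -0.63 ± 0.042, SD, n = 2, limma adjusted p = 0.00740). The RPS2 probe lies on chromosome 14 from 8181095 to 8181154 (galGal2). RPS27A, which is made as a fusion with ubiquitin, had 14.29 and 14.28 in the trained male and female pools, against 14.61 and 14.63 in the dark-reared pools (log2 -0.34 ± 0.019, SD, n = 2, limma adjusted p = 0.0141). Its processed ratios of -0.29 in males and -0.32 in females were nearly as low. RPS3, which lies where mRNA enters the subunit, had 14.12 and 14.24 in the trained male and female pools, against 14.504 and 14.585 in the dark-reared pools. Its mean of -0.36 ± 0.026 (SD, n = 2, limma adjusted p = 0.0125) turned to 0.049 in the processed signals, so its direction rests on the normalization. RPS14 (-0.12), RPS24 (-0.099) and RPS7 (-0.025) did not pass. No small subunit name was called higher, and the highest ratio was that of RPS19BP1 (0.17), which did not pass.

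Apart from RPL7A, described below, the 2 other members called lower stood on assembled transcripts. TC207164 is described by ribosomal protein S3a of the protozoan Eimeria tenella and placed on chromosome 4 from 33717812 to 33717868 (galGal2), and RefSeq also places the chicken gene RPS3A on chromosome 4. It had 14.88 and 14.80 in the trained male and female pools, against 15.27 and 15.25 in the dark-reared pools (log2 -0.42 ± 0.041, SD, n = 2, limma adjusted p = 0.0103). Its processed mean was -0.16 (limma adjusted p = 0.345). Whether the transcript is RPS3A was not tested. TC226189, described by a partial match to a protein S1, was dim (mean log2 signal 8.16) and had -0.46 in males and -0.30 in females (limma adjusted p = 0.0153), where the processed signals gave -0.24 and 0.024.

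The subunits were set side by side. Of 29 kept large subunit probes 7 were lower (24.1%), 2 higher and 20 not past the test. Of 23 kept small subunit probes 5 were lower (21.7%), 0 higher and 18 not past the test. Over the array 11.2% of kept probes were lower and 6.31% higher. Among the array's kept probes with a mean log2 signal of at least 13 the shares were 27.6% and 11.9%. The median ratio was -0.030 for the large and -0.073 for the small subunit. The large minus small difference was 0.044 for the mean over both arrays, 0.050 in males and 0.046 in females. In the processed signals it was 0.00016 in males and 0.00066 in females. With 2 arrays no permutation over samples can pass 0.05, so the subunits were not shown to differ. The small subunit ratios ran between -0.63 and 0.17 and the large subunit ratios between -0.73 and 0.29. Among the 39 probes with a chicken gene name alone, 6 of 18 kept large subunit probes and 3 of 11 kept small subunit probes were lower.

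The calls went with the brightness of the probes. Of the 22 kept members with a mean log2 signal of at least 13, 11 were lower, 1 higher and 10 not past the test, and their median ratio was -0.23. All 638 kept probes of the array in that range had a median of -0.051, and 27.6% of them were called lower and 11.9% higher. The 616 of these that were no members had a median of -0.050 and 26.8% called lower. The 30 kept members below that signal had a median of -0.015, with 1 called lower and 1 higher (3.33% each). The array's 26734 kept probes below it, members included, had a median of -0.012, with 10.8% called lower and 6.17% higher. At signals of 14 and more, 84 of the array's 215 kept probes, members included, were called lower and 19 higher, with a median of -0.12. The 13 members in that range had a median of -0.34, with 9 called lower, RPL35A higher and 3, RPL21 among them, not past the test. They were brighter than the array's kept probes in that range (median signals of 14.75 and 14.46). The array's median ratio fell with the signal there, from -0.042 near 14.27 to -0.16 near 14.69 and -0.36 near 15.15. Between 13 and 14 the array's 423 kept probes had a median of -0.017 and the 9 members one of -0.031. RPL14 and the probe named SMARCAL1 were the members called lower there, 22.2% of the 9, near the 21.7% of the array's 423. The bright members had medians of -0.19 (14 large subunit probes) and -0.26 (8 small subunit probes), with 7 and 4 called lower.

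A technical flag went with the same probes. For signals above the range of the first scan, the software takes the reading of a second scan at lower gain and scales it up, per the flag in the files. It did so for the dark-reared dye of 21 of the 22 bright members on both arrays, and for the trained dye of none of the 73. The 11 bright members called lower were all among the 21. Over the array 345 kept probes had the dark-reared reading scaled up on both arrays, with a median ratio of -0.12, and 36.8% of them were called lower. The part of these scaled readings and of the brightness in the members' ratios was not tested. Without them, the 31 kept members read at the higher gain had a median of -0.011, with TC226189 called lower and RPL3 higher. These calls were 3.23% in each direction, against 11.2% lower and 6.31% higher over all kept probes, whatever their gain. With a narrower loess span of 0.1, chosen after the data were seen, the same 12 members were called lower and the same 2 higher, and RPL32 (-0.66), RPS2 (-0.56) and RPL14 (-0.55) kept most of their size. In the processed signals 11 of the 12 lower members had a mean below 0.

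RPL7A was measured by more than one probe. The one made from its RefSeq mRNA, on chromosome 17 from 3532246 to 3532306, had 14.91 and 14.90 in the trained male and female pools, against 15.36 and 15.37 in the dark-reared pools. It was called lower (log2 -0.46 ± 0.018, SD, n = 2, limma adjusted p = 0.00852). A dim EST probe of RPL7A had ratios of 0.020 in males and 0.085 in females and did not pass. The assembled transcript TC206127, described as chicken L7a and placed from 3533877 to 3533934 on the same chromosome, had -0.10 in males and -0.017 in females and did not pass either. The array lists the coordinates of TC206127 in ascending and those of the RefSeq probe in descending order, so the probes run in opposite listed orders. The EST probes of RPL5, RPL21 and RPL22 were not kept, so these genes rest on a single probe, as do RPS2 and RPL14. RPL32 has a single probe under its gene name, on chromosome 12. The RPL35A probe, described as similar to L32, is placed on chromosome 9, so its ratio (0.22) was not taken as another value for RPL32.

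The relatives of ribosomal proteins did not pass the test. RPL7L1, a nucleolar protein in humans, had 11.47 and 11.54 in the trained male and female pools, against 11.36 and 11.29 in the dark-reared pools (mean 0.18, adjusted p = 0.0909 in limma). Its trained pools lay above the dark-reared pools on both arrays. RPS27L, a paralog of RPS27 induced by p53 in human cells, had a mean of -0.14 with -0.065 in males and -0.22 in females. RPL22L1, a paralog of RPL22, had -0.060 in males and 0.037 in females. RPL3L, which replaces RPL3 in mammalian striated muscle, was dim, with 0.023 and 0.15. The median of the 5 kept relatives was 0.087.

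The mitochondrial ribosomal proteins, encoded in the nucleus for the ribosomes of the mitochondrion, served as a comparison. Of their 51 probes 47 were kept, 7 were lower (14.9%), 5 higher (10.6%) and 35 did not pass, with a median of 0.011. The array's shares were 11.2% lower and 6.31% higher. Only 3 of the 47 had a mean log2 signal of at least 13, against 22 of the 52 cytosolic members, so the sets do not cover the same range of signal. No test was made of the difference between them.

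Other genes of protein synthesis were counted against the array's 11.2% lower and 6.31% higher. Of 13 measured genes for elongation factors and other mRNAs with a 5' pyrimidine tract, 3 were lower, 2 higher and 8 not past the test (23.1% and 15.4%), with a median of -0.079. EEF1A2, the elongation factor of mature neurons and muscle (-0.42), and EEF1E1, a protein of the multisynthetase complex (-0.42), were among those that fell. EEF1A2 had a mean log2 signal of 15.48, and the array's median ratios near 15.15 and 15.63 were -0.36 and -0.53. The processed means were -0.21 for EEF1A2 and -0.22 for EEF1E1. EIF3E (0.30), an initiation factor subunit, and NPM1 (0.29), a nucleolar chaperone, rose. Of 23 ribosome assembly genes 3 fell and 2 rose (13.04% and 8.70%), near the array's shares, with a median of 0.040. The pseudouridine synthase DKC1 (-0.50) fell on both arrays (-0.49 in males and -0.50 in females), and NHP2 (0.23), its partner in the same particle, rose. NOP56 (0.26) rose, and GNL3 (-0.25) and WDR43 (-0.28) fell. The processed signals gave -0.041 for DKC1 and 0.092 for WDR43. In the branch of mTOR and the S6 kinases, which phosphorylate RPS6, 1 of 17 genes fell, the mTOR activator RHEB (-0.27), and 1 rose, EIF4G2 (0.24), with a median of -0.015 and no more calls than the array's shares (5.88% each). The processed signals gave 0.036 for RHEB. These genes passed limma's test at an adjusted p of 0.05.

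Markers of the cell types in the brain were checked beside these values. The 6 measured neuron markers had summed log2 signals of 15.97 and 15.86 in the trained male and female pools, against 16.14 and 16.15 in the dark-reared male and female pools, with 2 lower, 1 higher and 3 not past the test. Those of 4 oligodendrocyte markers were 14.74 and 15.07 in the trained male and female pools, against 15.45 and 15.43, with 2 lower and 1 higher. The 6 astrocyte markers summed to 15.31 and 15.30, against 15.50 and 15.45 (3 lower, 1 higher), and the 6 vascular markers to 12.59 and 12.62, against 12.84 and 12.88 (3 lower, 0 higher). The 3 blood markers summed to 14.04 and 14.10 in the trained male and female pools, against 13.56 and 13.82, with 1 higher and 1 lower. The 6 microglial markers summed to 12.53 and 12.43, against 12.36 and 12.22 (1 higher, 0 lower), and the 6 markers of dividing cells to 10.71 and 10.66, against 10.75 and 10.63 (0 higher, 1 lower). The neuron, oligodendrocyte, astrocyte and vascular sums were lower and the blood and microglial sums higher in trained pools of both sexes. A sum is led by its brightest probes, however, and the lists were mixed. STMN2 and MBP, the brightest neuron and oligodendrocyte markers, had mean log2 signals of 14.99 and 15.01. Near signals of 14.69 and 15.15 the array's median ratios were -0.16 and -0.36. The median ratio was -0.025 over the neuron markers and -0.023 over the microglial markers, whose sum was led by CD74 (0.23). After loess THY1 (0.33), CNP (0.26) and AQP4 (0.21) rose in lists with a lower sum. The processed means of THY1, CNP and AQP4 were 0.41, 0.21 and 0.015. After loess the median was -0.11 over the oligodendrocyte, -0.12 over the astrocyte and -0.14 over the vascular markers. In the processed signals these medians were 0.059, -0.0029 and -0.013, with -0.017 for the neuron markers. The blood and microglial markers had processed medians of 0.18 and 0.062. Over the array 11.2% of kept probes were called lower and 6.31% higher. The part of the cell types in the ribosomal protein ratios was not tested.

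In single sexes, 3 of 52 members were at least 1.5-fold lower after training in males (RPL32, RPL14 and RPS2), where 0.957% of all kept probes were. In females 2 were (RPL32 and RPS2), where 0.643% were. All of these members had a mean log2 signal of at least 13. Of the array's 638 kept probes in that range, 24 were as much lower in males and 22 in females. Of the 616 of these that were no members, 21 were in males and 20 in females. None of the 52 was 1.5-fold higher in either sex, where 0.34% of all kept probes were in males and 0.321% in females. At shares of this size a count of 0 among 52 probes says little about the members. The male minus female difference in the response had a median of -0.016. The widest differences were those of TC204162 (-0.14 in males and 0.12 in females), RPS24 (-0.22 and 0.027), RPL14 (-0.67 and -0.50) and RPL23A (-0.41 and -0.25) on the side of a lower ratio in males. On the other side stood, among others, RPS27L (-0.065 in males and -0.22 in females), RPL36 (0.097 and -0.056) and TC207037 (0.052 and -0.090). Each sex had 1 array, so none of these differences could be tested.

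The sexes were then compared within each condition. The signal of the kept members differed between the male and female pools by medians of -0.020 in trained and 0.0050 in dark-reared chicks, with ranges of -0.28 to 0.21 and -0.18 to 0.25 on the log2 scale. None of the 52 reached 1.5-fold in either direction, where 0.833% of all kept probes were higher in males in trained and 1.03% in dark-reared chicks, and 0.216% and 0.237% lower. These shares count the array's chromosome Z probes, which the rule left out of the members. At shares of this size few of 52 probes would be expected to reach 1.5-fold. The widest mean differences above 0 were those of RPS21 (0.21 in trained and 0.21 in dark-reared chicks), TC206127 (0.17 and 0.25), RPS27L (0.16 and -0.0022) and RPS2 (0.029 and 0.088). Those below 0 included TC186809 (-0.16 and -0.18), TC204162 (-0.28 and -0.025) and RPL22 (-0.087 and -0.15). RPS21, the highest, had 6.75 in the male and 6.55 in the female trained pool, and 6.89 in the male and 6.68 in the female dark-reared pool. Sex and array cannot be told apart here.

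Ribosomal protein probes that the array places on chromosome Z, of which males have a pair and females a single copy, gave a contrast. RPS6, the target of the S6 kinases, had 14.40 in the male and 13.91 in the female trained pool, and 14.84 in the male and 14.30 in the female dark-reared pool. Its male minus female difference was 0.49 in trained and 0.55 in dark-reared chicks. RPS23, which lies at the decoding centre, had differences of 0.52 and 0.60, and RPL37 of 0.41 and 0.093. These exceeded each of the 52 autosomal or unplaced members in trained chicks, whereas RPL37 did not in dark-reared chicks. RPS15, also placed on Z by the array, differed by 0.027 and 0.026 between males and females. RefSeq places RPS6, RPS23 and RPL37 on chromosome Z and RPS15 on chromosome 28. The fifth such probe, TC207335, had differences of -0.041 and -0.064 and is known only by a match. RPL17, which RefSeq places on Z and the array on no chromosome, remained among the members but was well above background in 2 of 4 channels only. RPS6 (-0.45 in males and -0.39 in females, limma adjusted p = 0.0103) and RPS23 (-0.63 and -0.55, limma adjusted p = 0.00818) were lower after training in both sexes. Their processed means were -0.25 and -0.44. Both had the dark-reared reading scaled up on both arrays, and RPS23 also the trained reading. Near signals of 15.15 and 15.63, on either side of RPS23 (15.49), the array's median ratios were -0.36 and -0.53.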

How the data were processed

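Per the file headers, arrays were scanned and extracted with Agilent Feature Extraction 9.5.3.1 (8.5.1.1 per the submitters' processing notes). The deposited intensity columns used were mean spot and median background signals, without normalization. Spatial detrending and dye normalization by the software had produced the authors' processed intensity, whose log10 ratio is of red over green, per the file headers. The deposited series table's log2 ratio equals green over red processed signal, trained over dark-reared. Titles name the groups in both orders, so the direction follows the dye labels.

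In limma 3.58.1 (R 4.3.3), background was corrected by normexp with an offset of 50, and each array was then loess-normalized with a span of 0.3 and no weight on control spots. Outlier flags removed 25 probes, and no probe was saturated. The training ratio was tested with lmFit and eBayes over both arrays with Benjamini-Hochberg adjustment over 27372 probes, with 1 residual degree of freedom and a prior of 5.06. Male and female arrays stood in for replicates, so the spread between the 2 arrays includes any sex difference. The p-values combine a probe's own spread with one shared over all probes, and the shared one had the larger weight. They do not follow the SD of a single probe: for RPL32 it was 0.0052, and the standard error used was 0.053. Channel values for the sex comparison were normalized by loess and Aquantile, and these and the lists were summarised in Python 3.11.15 with pandas 2.3.3. On simulated data for the training comparison over 27372 probes, limma recovered 65 of 67 probes changed 1.25-fold, with 8 false calls in all. The simulated noise was independent between arrays and had the same spread for every probe. It therefore does not cover a dye effect that both arrays share, or probes of unequal spread, and the recovery may be too favourable.

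The rule was applied without regard to case. It matched 133 probes, of which 55 were left out as mitochondrial or kinase and 5 for chromosome Z. A RefSeq accession named 20 members, a gene number 9 and the array's symbol 16 (and 1 not in RefSeq), leaving 27 unnamed. The members, lists and naming rule were chosen with earlier results of these data known. That rule takes the 10 largest ratios past adjusted p 0.05 in each direction, genes with several probes, the 4 widest sex differences in each direction, and stalk proteins and relatives. Genes named with a ratio that did not pass, RPL23A and RPL6, the list genes and the Z probes were chosen after their values were seen. Some probes that the rule takes count in the totals but are not reported here by name.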

Additional observations from a re-analysis of the deposited data

Results flagged for a closer look

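TC204162, an assembled transcript described by a partial match to a ribosomal protein S2, had training ratios of opposite sign on the arrays, -0.14 in males and 0.12 in females. The difference was not tested, because each sex had a single array. The processed signals put both arrays above 0, at 0.17 in males and 0.35 in females.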

How the results depend on the processing

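The training ratios depended on how dye and background were treated. In the following, the medians are those of all kept members, of the large and of the small subunit names and the large minus small difference. A normexp offset of 16 gave 934 called probes of the array, 5 lower and 0 higher members, and medians of -0.052, -0.047, -0.10 and 0.057. An offset of 0 gave 0 called probes and 0 lower and 0 higher members in limma (7367 probes, 14 lower and 3 higher members at an unadjusted p of 0.05), with -0.060, -0.044, -0.10 and 0.060. The processed signals gave 0 called probes and 0 lower and 0 higher members in limma (4878 probes at an unadjusted p of 0.05), and these and the deposited series table gave -0.020, -0.017, -0.032 and 0.015. RPS3 was 0.049 in both. The sex difference in trained chicks was -0.00064 in the processed signals. Median centring gave 17473 called probes, 38 lower and 0 higher members, and -0.83, -0.78, -0.86 and 0.087, with RPL35A at -0.78, RPL36 at -0.89, RPL3 at -0.56 and RPL7L1 at -0.59. Without dye normalization, where all kept probes had medians of -0.85 in males and -0.71 in females, 26676 probes were called and 52 members lower and 0 higher. The medians were then -1.26, -1.21, -1.30 and 0.087, with TC186809 at -0.37, the EST probe of RPL7A at -0.49, RPL35A at -1.21, RPL36 at -1.33, RPL3 at -0.99 and RPL7L1 at -1.03. Requiring both dyes above background gave -0.099 for the small subunit and a difference of 0.066. No filter gave -0.031 for all members, -0.017 for the large subunit and 0.051 for the difference, and the brightest probe per gene a difference of 0.053. Of the settings chosen after the data were seen, a loess span of 0.1 gave -0.025, -0.015 for the large subunit and 0.050 for the difference. Named chicken genes alone gave -0.053, -0.045, -0.12 and 0.071. Members with the dark-reared signal from the higher-gain scan gave 1 lower and 1 higher (3.23% each, against 11.2% and 6.31% over all kept probes). Their medians and difference were -0.011, 0.023, -0.046 and 0.069. Their large minus small difference was 0.10 in males and -0.026 in females. Leaving out 1 sex gave medians of -0.063 to -0.054, -0.034 to -0.020 and -0.084 to -0.065, and differences of 0.046 to 0.050, with no test. The causes were not tested. The test of within-array ratios already pairs each trained pool with the dark-reared pool of its sex, so no further block was fitted. A dim probe near background limits what its ratio can show.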
